A study of Mus musculus with 12 samples.

Results

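The mRNA levels of 8 genes were followed in pre-selection thymocytes, taken by symbol from a table of 23234 genes and short RNAs. They were the HMG-box factors Tcf7, Lef1, Tcf7l2, Tox and Sox4, the Wnt pathway partners Ctnnb1 and Axin2, and the chromatin organizer Satb1. RNA-seq covered 12 libraries of sorted CD24hi TCRβlo CD4+CD8+ double-positive (DP) thymocytes from C57BL/6 mice, namely 5 from wild-type newborns, 3 from Bcl11bm/m newborns and 4 from Bcl11bfl/fl:Cd4-Cre mice. Bcl11bm/m mice are homozygous for a frameshift allele that truncates Bcl11b before its last zinc finger, and they die as neonates. The Bcl11bfl/fl:Cd4-Cre mice express Cre from the Cd4 promoter, which deletes the floxed part of Bcl11b around the DP stage. The labels do not give the age of these mice, so age and genotype cannot be told apart in comparisons that involve them. Genotypes follow the titles of the samples and the design text of the series, because the separate description field names Bcl11bm/m for wild-type samples and Bcl11b+/+ for Bcl11bfl/fl:Cd4-Cre samples. The mutant newborns are titled HM, and the study uses that name also for a second allele with the same frameshift. The protocol in the labels describes another cell population, and this conflict was not resolved. No label says that replicates came from separate animals, so p-values measure the spread between these samples only.

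The TCF/LEF proteins bind DNA through an HMG box and act with β-catenin, the product of Ctnnb1, when Wnt signals spare it from the destruction complex that contains Axin2. Without β-catenin they recruit Groucho/TLE co-repressors. In the thymus, Tcf7 (which encodes TCF-1) and Lef1 act from T-lineage specification through the DP stage, Tox and Sox4 act around and after the DP stage, and Satb1 organizes chromatin in DP thymocytes. Bcl11b is a zinc-finger factor of T-lineage commitment, and the comparisons ask which mRNAs differ when its last zinc finger is lost or the floxed part of the gene is deleted.

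The library size was estimated from the spacing of low FPKM values (fragments scaled to transcript length and library size) as 3660000 to 6180000 fragments in wild-type, 2510000 to 3840000 for Bcl11bm/m and 10010000 to 41810000 for Bcl11bfl/fl:Cd4-Cre. The last group was thus the deepest throughout. Bcl11b itself ranged over 132 to 292 FPKM for wild-type, 430 to 482 FPKM for Bcl11bm/m and 115 to 140 FPKM for Bcl11bfl/fl:Cd4-Cre, whose range overlapped that of wild-type (log2 difference -0.68, adjusted p = 0.0828 by limma). Since 1 value covers all exons, the altered part of the gene was not resolved. Wild-type replicate 1 stood apart, with the lowest median-ratio size factor (0.858 against 0.918 to 1.18 in the other 11 libraries) and the highest share of short RNAs (17.1% of FPKM). This library had the lowest wild-type value for 6 of the 8 genes and, after median-ratio scaling, for 0 of them.

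The promoters of 3 genes are shown because these genes carry the differences described below, Axin2 and Lef1 in Bcl11bm/m cells and Sox4 in Bcl11bfl/fl:Cd4-Cre cells. Promoters of 7 of the 8 genes, all except Tox, were found in a RefSeq table on build GRCm38.p6. Each line holds the 250 bases upstream of a transcript start, written 5′ to 3′ on the strand of the gene, for Lef1 the first of 4 starts at chr3:131110047-131110296 (+), for Axin2 chr11:108920099-108920348 (+) and for Sox4 chr13:28953700-28953949 (-).
Lef1: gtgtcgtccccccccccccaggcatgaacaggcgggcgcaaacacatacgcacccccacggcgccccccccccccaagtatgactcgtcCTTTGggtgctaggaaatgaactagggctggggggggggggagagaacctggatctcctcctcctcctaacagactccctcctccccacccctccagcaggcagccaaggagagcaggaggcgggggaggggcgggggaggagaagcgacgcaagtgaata
Axin2: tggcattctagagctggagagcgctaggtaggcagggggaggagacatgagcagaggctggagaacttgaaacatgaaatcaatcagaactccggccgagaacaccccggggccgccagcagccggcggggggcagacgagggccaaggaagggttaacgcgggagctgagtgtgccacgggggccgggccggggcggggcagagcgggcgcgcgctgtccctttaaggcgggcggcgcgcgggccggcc
Sox4: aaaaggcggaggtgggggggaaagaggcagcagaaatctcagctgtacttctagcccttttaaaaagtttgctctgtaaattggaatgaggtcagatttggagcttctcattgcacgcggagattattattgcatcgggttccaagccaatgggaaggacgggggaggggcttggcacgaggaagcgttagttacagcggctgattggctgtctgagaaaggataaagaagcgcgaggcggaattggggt
Capitals mark the core letters of the TCF/LEF site, CTTTG, searched on both strands. This Lef1 window held 1 match, 157 bases before the start, and the Axin2 and Sox4 windows held 0. The windows of the later Lef1 starts, not shown, held 2, 1 and 3 matches. Of 32851 mouse promoters of that length, 48.6% held a match. The letters ACCACA and ACCGCA, bound by Runx factors, occurred in 18.6% of them and in none of the windows of the 7 genes. A match is only a match of letters, and its absence says only that these letters are not in the window.

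Among the DNA-binding members, Tcf7 was by far the most abundant, and the order of levels by FPKM was nearly the same in all groups. Tcf7 averaged 2170 ± 158 FPKM in wild-type (SD, n = 5), 1990 ± 197 FPKM in Bcl11bm/m (n = 3) and 2410 ± 414 FPKM in Bcl11bfl/fl:Cd4-Cre libraries (n = 4), which made it the feature with rank 6 of all 23234 by mean level. Satb1 followed with rank 75 and Lef1 with rank 371. Sox4 (rank 544), Ctnnb1 (rank 628) and Tox (rank 1441) were lower, and Axin2 had rank 6983. In wild-type cells the ranges of Lef1 and Sox4, and those of Sox4 and Ctnnb1, overlapped, whereas every other pair of neighbours in the order was separate in every library. In Bcl11bm/m libraries all neighbours were separate. Ctnnb1 ranked above Sox4 in Bcl11bfl/fl:Cd4-Cre cells, where the ranges of Lef1 and Ctnnb1, and of Sox4 and Tox, overlapped.

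**Figure D1:**
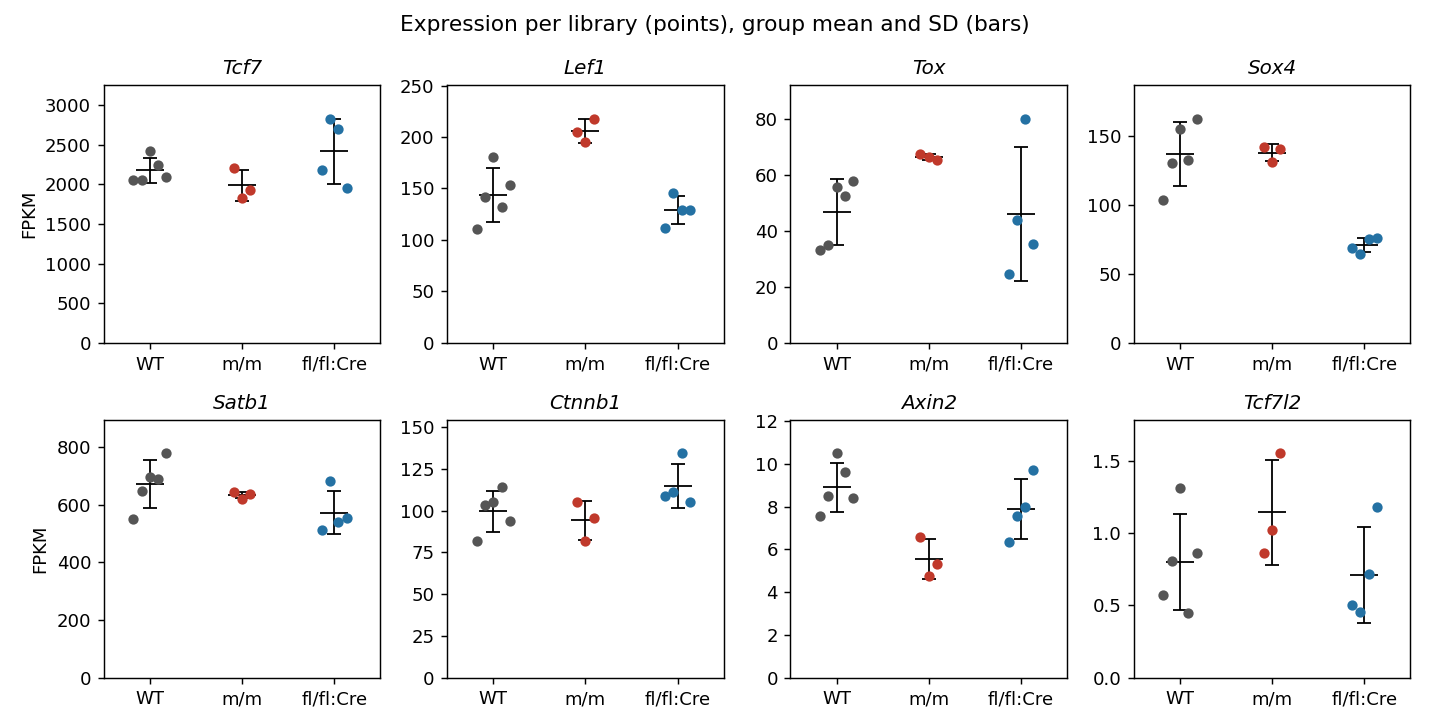
FPKM of the 8 genes in each library (points), with group means and SD (bars), in wild-type (WT, n = 5), Bcl11bm/m (m/m, n = 3) and Bcl11bfl/fl:Cd4-Cre (fl/fl:Cre, n = 4) thymocytes, each panel on its own linear axis from 0. The Bcl11bm/m libraries lie above all others for Lef1 and below all wild-type libraries for Axin2, and the Bcl11bfl/fl:Cd4-Cre libraries lie below all others for Sox4.

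Differences were tested by limma on log2(FPKM + 1) over 10780 features whose mean reached 1 FPKM, with p-values adjusted by Benjamini-Hochberg and called under 0.05. Of the 8 genes, 7 could be tested, and Tcf7l2, at a mean of 0.857 FPKM, could not. In Bcl11bm/m against wild-type, 1 of 7 genes passed (Axin2, lower), where 17.3% of all features passed, 9.92% higher and 7.39% lower. Non-overlapping groups were found for 3 of 7 (Lef1, Tox and Axin2), and for 25.4% of all features. For Bcl11bfl/fl:Cd4-Cre against wild-type, 1 of 7 passed and did not overlap (Sox4, lower), where 14.5% of features passed, 4.65% higher and 9.86% lower, and 16.1% did not overlap. In Bcl11bm/m against Bcl11bfl/fl:Cd4-Cre, 2 of 7 passed (Lef1 and Sox4, both higher), where 10.2% passed, 7.63% higher and 2.6% lower. There 3 of 7 did not overlap (Lef1, Sox4 and Ctnnb1), where 26.7% of features did not. With 7 genes tested, each gene counts for much of a share, and nothing particular to the members is read from these counts. The median log2 difference of the 7 genes was -0.08, -0.14 and 0.16 in the 3 comparisons, beside -0.02, -0.09 and 0.09 over all features tested. The comparisons share groups and are not independent of each other.

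**Figure D2:**
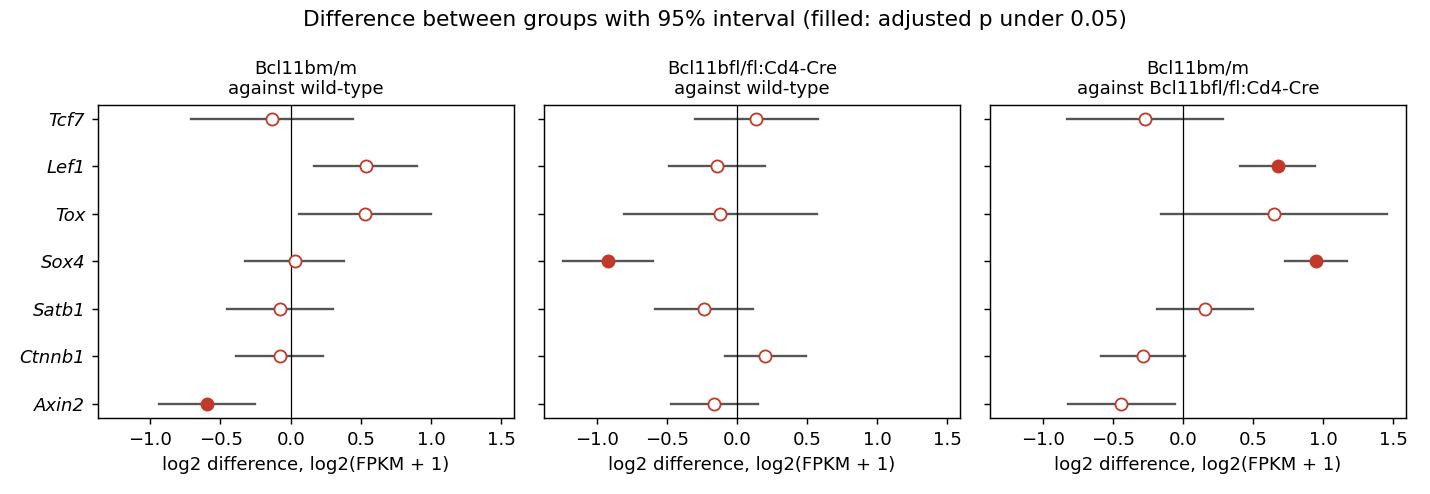
Difference in mean log2(FPKM + 1) for the 7 genes tested, with its 95% interval from limma, in the 3 comparisons, where a positive value means higher in the group named first. Filled points, at an adjusted p under 0.05, are Axin2 in Bcl11bm/m against wild-type, Sox4 in Bcl11bfl/fl:Cd4-Cre against wild-type, and Lef1 and Sox4 in the direct comparison.

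Listed by replicate, Tcf7 gave 2055, 2054, 2418, 2245 and 2092 FPKM for wild-type, 2206, 1828 and 1925 FPKM for Bcl11bm/m and 2178, 2827, 2692 and 1955 FPKM for Bcl11bfl/fl:Cd4-Cre. The 3 ranges overlapped, and 2 of the Bcl11bfl/fl:Cd4-Cre libraries lay above all others. Against wild-type, the log2 difference was -0.13 (95% interval -0.71 to 0.45, adjusted p = 0.777) in Bcl11bm/m and 0.14 (-0.30 to 0.58, adjusted p = 0.679) in Bcl11bfl/fl:Cd4-Cre cells by limma. The intervals still allow differences of about the size seen for Lef1.

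Lef1, the gene with the second highest TCF/LEF mRNA level in these cells, was highest in Bcl11bm/m cells. By replicate, its values were 110, 142, 181, 132 and 153 FPKM for wild-type, 204, 195 and 218 FPKM for Bcl11bm/m and 112, 146, 129 and 129 FPKM for Bcl11bfl/fl:Cd4-Cre. All 3 Bcl11bm/m libraries lay above the other 9, and the ranges of those 9 overlapped between their groups. Lef1 rose in Bcl11bm/m relative to Bcl11bfl/fl:Cd4-Cre cells by 0.67 on the log2 scale, or 1.6-fold (SE 0.11, 95% interval 0.41 to 0.94, adjusted p = 0.0161 by limma). Against wild-type the log2 difference was 0.53 (SE 0.16, 95% interval 0.17 to 0.90), and its adjusted p of 0.0549 by limma missed the threshold. Between Bcl11bfl/fl:Cd4-Cre and wild-type it was -0.14 (-0.48 to 0.20, adjusted p = 0.579).

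The call in the direct comparison was lost without Bcl11bm/m replicate 2 (adjusted p = 0.0514) or 3 (adjusted p = 0.0721) by limma. Against wild-type, Lef1 passed after median-ratio scaling (adjusted p = 0.0199), after rescaling without short RNAs (adjusted p = 0.0118), in a single fit of all groups (adjusted p = 0.0292), with library quality weights (adjusted p = 0.0207), and without wild-type replicate 1 (adjusted p = 0.0432) or 3 (adjusted p = 0.0289). That was 4 of 8 alternatives with all libraries and 2 of 8 fits without a library. Among the rest, its adjusted p by limma reached 0.26 with a replicate block and 0.169 without Bcl11bm/m replicate 3. The log2 difference lay between 0.44 and 0.63 in all settings run.

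Within single libraries the balance of the TCF/LEF mRNAs differed in the same way. Lef1 was 6.59 ± 0.928% of Tcf7 by FPKM in wild-type (SD, n = 5), 10.4 ± 1.04% in Bcl11bm/m (n = 3) and 5.43 ± 0.799% in Bcl11bfl/fl:Cd4-Cre libraries (n = 4). The Bcl11bm/m values of 9.27, 10.7 and 11.3% lay above the highest value of the other groups, 7.49%. This ratio does not change with the scaling of a library. It reuses the Lef1 values given above, so it is no separate evidence on Lef1. It was computed without a test, since its parts were compared above. Tcf7 made up most of the mRNA of the 3 TCF/LEF members, with 93.0 to 94.9% of the summed FPKM of Tcf7, Lef1 and Tcf7l2 in wild-type, 89.8 to 91.5% for Bcl11bm/m and 93.8 to 95.4% for Bcl11bfl/fl:Cd4-Cre.

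**Figure D3:**
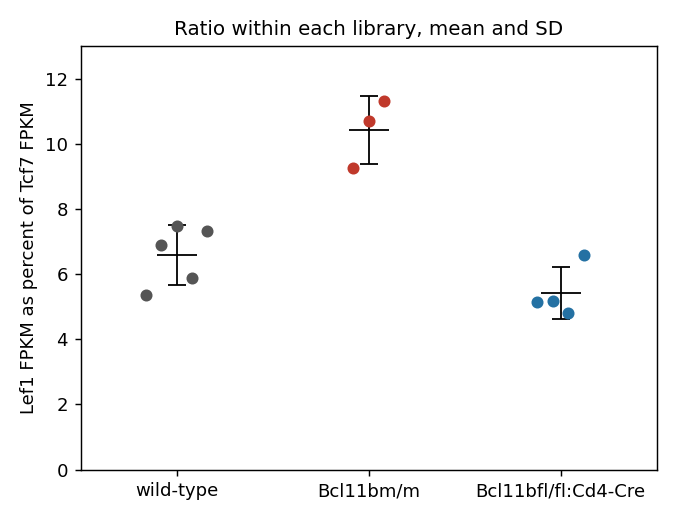
Lef1 FPKM as a percentage of Tcf7 FPKM in each library (points), with group means and SD (bars), on a linear axis from 0. The 3 Bcl11bm/m libraries lie between 9.27 and 11.3%, above the 9 other libraries, which lie between 4.8 and 7.49%.

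Tcf7l2, the TCF/LEF gene best known from intestinal epithelium, was near the lower end of what these libraries resolve. It averaged 0.801 ± 0.331 FPKM in wild-type (SD, n = 5), 1.14 ± 0.363 FPKM in Bcl11bm/m (n = 3) and 0.713 ± 0.332 FPKM in Bcl11bfl/fl:Cd4-Cre libraries (n = 4). That corresponds to an estimated 7 to 90 fragments per library on its longest transcript. The ranges overlapped, and with the filter on low values removed the adjusted p by limma was 0.6 and 1.0 against wild-type in the Bcl11bm/m and Bcl11bfl/fl:Cd4-Cre groups. No difference in Tcf7l2 was detected, and whether depth or the spread between libraries limits this was not tested.

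Axin2, a scaffold of the destruction complex and itself a common target of Wnt signals, fell in Bcl11bm/m cells. By replicate, it gave 7.54, 8.49, 10.5, 9.62 and 8.39 FPKM for wild-type and 6.58, 4.78 and 5.30 FPKM for Bcl11bm/m. All Bcl11bm/m libraries lay below all wild-type libraries. The log2 difference was -0.60, a ratio of 0.66 in FPKM + 1 (SE 0.15, 95% interval -0.94 to -0.26, adjusted p = 0.0275 by limma). The Bcl11bfl/fl:Cd4-Cre values of 6.33, 7.58, 8.0 and 9.71 FPKM overlapped both other groups. The log2 difference was -0.16 against wild-type (-0.47 to 0.15, adjusted p = 0.479), and -0.44 in Bcl11bm/m against Bcl11bfl/fl:Cd4-Cre cells (-0.82 to -0.06, adjusted p = 0.128), so a difference between the mutants was not shown.

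Leaving out single libraries ended the Axin2 call in 6 of 8 fits. By limma it was lost without wild-type replicate 2 (adjusted p = 0.058), 3 (adjusted p = 0.0596), 4 (adjusted p = 0.0502) or 5 (adjusted p = 0.0528) and without Bcl11bm/m replicate 2 (adjusted p = 0.129) or 3 (adjusted p = 0.0941), and it was kept without wild-type replicate 1 or Bcl11bm/m replicate 1. The log2 difference stayed between -0.71 and -0.51 in all settings run. The lowest library held an estimated 70 fragments of Axin2 on its longest transcript.

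Ctnnb1, which encodes β-catenin, gave 81.9, 103, 105, 114 and 93.7 FPKM for wild-type, 105, 82.0 and 95.5 FPKM for Bcl11bm/m and 109, 111, 134 and 105 FPKM for Bcl11bfl/fl:Cd4-Cre, by replicate. The mutant groups did not overlap, by a narrow gap between 104.8 and 105.0 FPKM, and the wild-type range overlapped both. The log2 difference was 0.20 in Bcl11bfl/fl:Cd4-Cre against wild-type (-0.09 to 0.49, adjusted p = 0.322 by limma) and -0.08 in Bcl11bm/m against wild-type (-0.39 to 0.23, adjusted p = 0.751). After median-ratio scaling, the Bcl11bfl/fl:Cd4-Cre values of 107 to 138 lay above the wild-type values of 87.3 to 99.8, and the difference passed (adjusted p = 0.0439), as it did after rescaling without short RNAs (adjusted p = 0.0203).

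Sox4, an HMG-box factor expressed in immature lymphocytes, fell in Bcl11bfl/fl:Cd4-Cre cells. Its values by replicate were 103, 131, 155, 132 and 163 FPKM for wild-type, 142, 131 and 141 FPKM for Bcl11bm/m and 68.8, 64.8, 75.1 and 75.9 FPKM for Bcl11bfl/fl:Cd4-Cre. The last 4 lay below the 8 newborn libraries, whose ranges overlapped. Sox4 fell in Bcl11bfl/fl:Cd4-Cre relative to wild-type cells by 0.92 on the log2 scale, to 0.529 times the level (SE 0.14, 95% interval -1.24 to -0.60, adjusted p = 0.00535 by limma). Relative to Bcl11bfl/fl:Cd4-Cre cells it was higher in Bcl11bm/m cells by 0.95 (SE 0.09, 95% interval 0.73 to 1.17, adjusted p = 0.00241). In Bcl11bm/m against wild-type the difference was 0.03 (-0.33 to 0.38, adjusted p = 0.931).

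The Sox4 call against wild-type was kept in all 17 alternative settings, with adjusted p between 0.000648 and 0.0378 by limma. The call between the mutants was kept in all but one, the fit with a replicate block (adjusted p = 0.0874). The Bcl11bfl/fl:Cd4-Cre libraries differed from the newborn libraries also in depth and possibly in age, which cannot be told apart from genotype here. The annotation holds 2 genes with the symbol Sox4, a short one lying inside the other (chromosome 13, 29040788 to 29045582 on NCBIM37), and the table has a single row for them.

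Tox, an HMG-box factor needed for the CD4 lineage, varied widely except in Bcl11bm/m cells. Replicate by replicate, Tox gave 33.2, 35.1, 55.6, 52.3 and 58.0 FPKM for wild-type, 67.6, 66.3 and 65.2 FPKM for Bcl11bm/m and 24.8, 43.7, 80.1 and 35.4 FPKM for Bcl11bfl/fl:Cd4-Cre. The Bcl11bm/m values lay above all wild-type values but within the Bcl11bfl/fl:Cd4-Cre range, where replicate 3 was the highest of all 12. The log2 difference was 0.53 in Bcl11bm/m against wild-type (SE 0.21, 95% interval 0.06 to 1.002, adjusted p = 0.121 by limma), which missed the threshold. It passed after median-ratio scaling (adjusted p = 0.0379), after rescaling without short RNAs (adjusted p = 0.0164) and with library quality weights (adjusted p = 0.049). That was 3 of 8 alternatives with all libraries, whose adjusted p by limma went up to 0.256. With a library left out it passed in 0 of 8 fits (adjusted p = 0.0955 to 0.266). The coefficient of variation was 25.2% in wild-type, 1.8% in Bcl11bm/m and 52.2% in Bcl11bfl/fl:Cd4-Cre libraries. Without Bcl11bfl/fl:Cd4-Cre replicate 3 the difference between the mutants was 0.95 (adjusted p = 0.0348), against 0.65 (-0.16 to 1.46, adjusted p = 0.259) with it.

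Satb1, which folds chromatin at many thymocyte loci, passed the test in none of the 3 comparisons. The values by replicate were 551, 648, 696, 688 and 779 FPKM for wild-type, 644, 622 and 636 FPKM for Bcl11bm/m and 512, 681, 539 and 555 FPKM for Bcl11bfl/fl:Cd4-Cre. All 3 ranges overlapped, and the log2 difference from wild-type was -0.08 (-0.46 to 0.30, adjusted p = 0.805 by limma) in Bcl11bm/m and -0.23 (-0.58 to 0.12, adjusted p = 0.353) in Bcl11bfl/fl:Cd4-Cre cells.

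**Figure D4:**
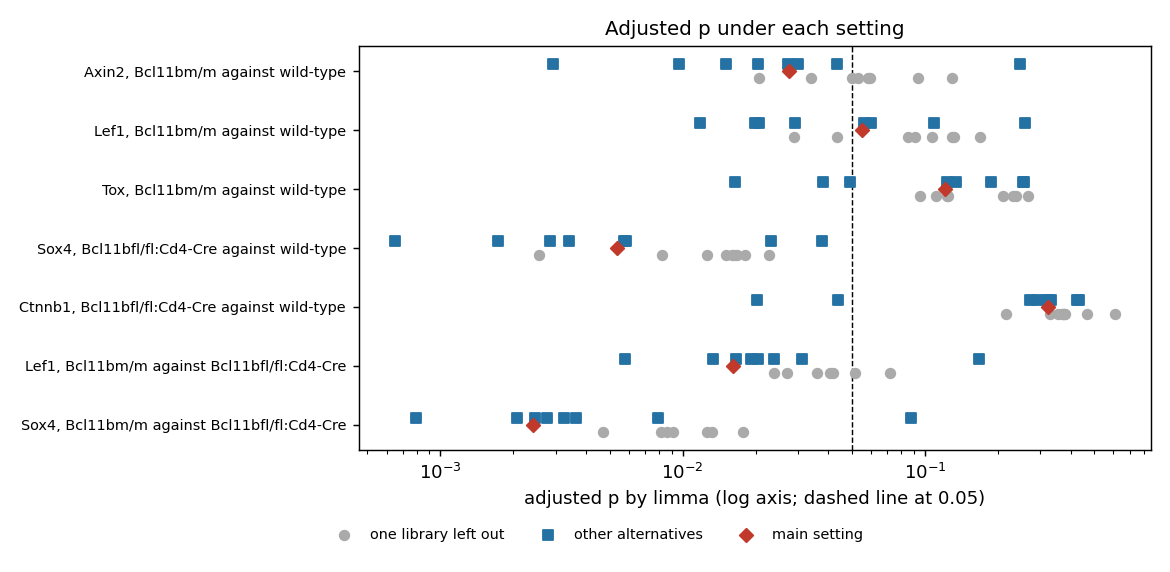
Adjusted p by limma (log axis, dashed line at 0.05) for 7 member differences under the main setting (red diamonds), 8 other alternatives each (blue squares) and the fits that leave out one library (grey circles). Sox4 in Bcl11bfl/fl:Cd4-Cre against wild-type stays left of the line in every setting, whereas Axin2 and Lef1 in Bcl11bm/m against wild-type lie on both sides of it.

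Markers of thymocyte stages and of other cell types were examined in the same libraries, and their counts are read beside the 9.92% of all features that were higher and 7.39% lower in Bcl11bm/m, and the 4.65% higher and 9.86% lower in Bcl11bfl/fl:Cd4-Cre, than in wild-type. All 10 markers of pre-selection DP cells were expressed in every group, with summed FPKM of 5100 to 6800 in wild-type, 3760 to 4280 for Bcl11bm/m and 3530 to 5600 for Bcl11bfl/fl:Cd4-Cre, and 6 of the 10 fell in Bcl11bm/m cells, among them Cd4 and Cd24a. Markers of the preceding double-negative stage were at 15.2 to 20.5, 97.6 to 246 and 33.8 to 108 summed FPKM, and 6 of 8 rose in Bcl11bm/m and 4 of 8 in Bcl11bfl/fl:Cd4-Cre cells relative to wild-type. Il2ra, the IL-2 receptor α chain, averaged 62.9 FPKM in Bcl11bm/m beside 3.73 FPKM in wild-type cells. Post-selection markers summed to 179 to 340, 480 to 801 and 186 to 425 FPKM, and the group that was highest here was also highest for Lef1. Proliferation genes summed to 470 to 606, 153 to 414 and 54.6 to 285 FPKM, and all 7 fell in Bcl11bfl/fl:Cd4-Cre cells, where Sox4 fell, while 5 of 7 fell in Bcl11bm/m cells, where Sox4 was level with wild-type. Myeloid markers summed to at most 18.9 FPKM in wild-type, to 32.5, 45.2 and 115 FPKM in the 3 Bcl11bm/m libraries and to 4.54 to 52.3 FPKM for Bcl11bfl/fl:Cd4-Cre. Of 7 tested, 3 rose in Bcl11bm/m and 2 fell in Bcl11bfl/fl:Cd4-Cre cells. NK and γδ T cell markers summed to 2.11 to 4.16, 46.2 to 72.3 and 2.99 to 34.8 FPKM, with Gzmb listed at 0 in wild-type and Bcl11bm/m cells. Of 4 tested, 3 rose in Bcl11bm/m and 1 (Prf1) fell in Bcl11bfl/fl:Cd4-Cre cells. Most of the Bcl11bm/m sum came from Cd163l1, at a mean of 52.0 FPKM, beside 5.12 for Prf1, 4.22 for Klrb1c and under 1 FPKM for the other listed genes. B cell markers summed to 13.3 to 21.3, 8.25 to 36.4 and 11.9 to 37.9 FPKM, and of 3 tested 0 passed in Bcl11bm/m and 2 rose in Bcl11bfl/fl:Cd4-Cre cells (Cd79a, adjusted p = 0.0237, and Blk, adjusted p = 0.0487), with Pax5 listed at 0 in wild-type. Stromal markers summed to 39.3 to 67.2, 143 to 164 and 82.2 to 128 FPKM, nearly all of it Pecam1, which rose in both mutants, while Epcam fell in both and Foxn1 was listed at 0 in Bcl11bm/m. Erythroid markers summed to 2.36 to 33.9, 10.6 to 29.7 and 0.829 to 5.06 FPKM, and 0 of 3 tested passed against wild-type. In bulk samples fewer cells of a type and less RNA per cell cannot be told apart. The part of these markers in the differences of Lef1, Tox, Axin2 and Sox4 was not tested.

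Among 16 nuclear cofactors of TCF/LEF tested, 3 rose and 1 fell in Bcl11bm/m, and 3 rose and 2 fell in Bcl11bfl/fl:Cd4-Cre cells relative to wild-type, so that 4 and 5 of 16 passed where 17.3% and 14.5% of all features did. The list medians were -0.23 and 0.02 beside -0.02 and -0.09 over all features. Bcl9l, which couples β-catenin to transcription, rose from 6.56 ± 2.02 FPKM in wild-type (SD, n = 5) to 37.6 ± 1.66 FPKM in Bcl11bm/m (n = 3, log2 difference 2.40, SE 0.24, adjusted p = 0.00044 by limma) and 25.1 ± 8.27 FPKM in Bcl11bfl/fl:Cd4-Cre cells (n = 4, log2 difference 1.77, SE 0.28, adjusted p = 0.00523). Both mutant groups lay above every wild-type library. Tle2, a Groucho/TLE co-repressor, rose by 1.33 (adjusted p = 0.00685) and 2.06 (adjusted p = 0.00453), and Tle3 rose by 0.74 (adjusted p = 0.011) and 0.84 (adjusted p = 0.0319). Tle1 went the other way in Bcl11bm/m cells, where it fell from 2.87 ± 0.545 to 0.949 ± 0.51 FPKM (adjusted p = 0.00993), and it was at 3.73 ± 1.74 FPKM in Bcl11bfl/fl:Cd4-Cre cells. The Tle3 call in Bcl11bfl/fl:Cd4-Cre cells was not run under other settings. Replicate 3 of that group was at 163.8 FPKM for Tle3, above 81.2 to 84.4 FPKM in the others. Smarca4, the ATPase of SWI/SNF remodelling complexes, and Ctnnbip1, an inhibitor of β-catenin binding, fell in Bcl11bfl/fl:Cd4-Cre cells by 0.84 (adjusted p = 0.0223) and 0.87 (adjusted p = 0.0345). Without Bcl11bfl/fl:Cd4-Cre replicate 1 their adjusted p by limma was 0.07 and 0.105. Leaving out wild-type replicate 3 or 5 or Bcl11bfl/fl:Cd4-Cre replicate 3 also ended both calls, with adjusted p of 0.0511 to 0.0855, and that of Ctnnbip1 ended as well without wild-type replicate 2 or 4 or Bcl11bfl/fl:Cd4-Cre replicate 4, with adjusted p of 0.0682 to 0.086. Both calls were also lost when low features were kept in the fit (adjusted p = 0.0736 and 0.109).

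Of 17 genes of the destruction complex and cytoplasmic relay tested, most did not pass. In Bcl11bm/m against wild-type 0 rose and 1 fell, and in Bcl11bfl/fl:Cd4-Cre against wild-type 2 rose and 1 fell, where 17.3% and 14.5% of all features passed. Csnk1e, a casein kinase of the pathway, fell in both, by 0.82 (adjusted p = 0.0117) and 0.62 (adjusted p = 0.029) by limma. Dvl1 and Dvl3, which relay the receptor signal, rose in Bcl11bfl/fl:Cd4-Cre cells by 0.46 (adjusted p = 0.039) and 0.94 (adjusted p = 0.0375). These calls were lost when single libraries were left out, with adjusted p up to 0.0545 for Csnk1e in Bcl11bm/m (without Bcl11bm/m replicate 2) and up to 0.0872, 0.118 and 0.103 for Csnk1e, Dvl1 and Dvl3 in Bcl11bfl/fl:Cd4-Cre cells (without Bcl11bfl/fl:Cd4-Cre replicate 3, 1 and 1). The call was ended by 5 single libraries for Csnk1e in Bcl11bfl/fl:Cd4-Cre cells and by 7 each for Dvl1 and Dvl3. Keeping low features in the fit ended these 3 calls in Bcl11bfl/fl:Cd4-Cre cells too (adjusted p = 0.0757, 0.0697 and 0.121), and rescaling without short RNAs ended those of Csnk1e (adjusted p = 0.0694) and Dvl1 (adjusted p = 0.0504).

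Most Wnt ligands, receptors, and inhibitors and feedback genes (a list that includes Myc) were too low to be tested. Above the filter were 4 of 21, 4 of 12 and 4 of 20 listed genes. In Bcl11bm/m against wild-type 1 ligand fell, and 1 receptor and 2 inhibitor or feedback genes rose, where 17.3% of all features passed. For Bcl11bfl/fl:Cd4-Cre against wild-type 0 passed, where 14.5% of all features did. In Bcl11bm/m cells Myc, a proliferation factor known as a Wnt target, rose from 9.47 ± 1.69 to 38.8 ± 13.5 FPKM (log2 difference 1.89, SE 0.22, adjusted p = 0.00092 by limma), while Axin2, on the member list, fell. Myc was at 10.97 ± 3.16 FPKM in Bcl11bfl/fl:Cd4-Cre cells (adjusted p = 0.613). Fzd5, a Wnt receptor, and Apcdd1, a Wnt inhibitor, rose in Bcl11bm/m cells by 0.73 (adjusted p = 0.011) and 0.71 (adjusted p = 0.0114), at levels of only 2.337 and 2.498 FPKM, and without Bcl11bm/m replicate 2 both missed the threshold (adjusted p = 0.0512 and 0.0516). The ligand Wnt8b was at 2.90 ± 1.28 FPKM in wild-type cells, was listed at 0 in all 3 Bcl11bm/m libraries and was at 1.64 ± 0.92 FPKM in Bcl11bfl/fl:Cd4-Cre cells. The ligand Wnt5b was at 3.41 ± 1.11, 5.75 ± 0.157 and 2.20 ± 0.45 FPKM in the 3 groups and was higher in Bcl11bm/m cells in the direct comparison (log2 difference 1.09, adjusted p = 0.00715).

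Of 23 listed relatives of the members, 12 could be tested, all of them HMG-box genes. Among these 0 rose and 2 fell in Bcl11bm/m cells, where 9.92% of all features were higher and 7.39% lower. In Bcl11bfl/fl:Cd4-Cre cells 1 rose and 5 fell, where 4.65% of all features were higher and 9.86% lower. The list medians were -0.06 and -0.04 beside -0.02 and -0.09 over all features. Hmgb2, an abundant chromatin protein of dividing cells, went from 259 ± 67.3 FPKM in wild-type to 110 ± 32.1 FPKM in Bcl11bm/m (log2 difference -1.23, adjusted p = 0.0118 by limma) and 80.8 ± 33.1 FPKM in Bcl11bfl/fl:Cd4-Cre cells (-1.71, adjusted p = 0.00538). Hmgb1 fell by 1.05 (adjusted p = 0.0119) and 1.14 (adjusted p = 0.00735), although reads of its many processed copies could be shared with it. Without Bcl11bm/m replicate 2 the adjusted p in Bcl11bm/m was 0.0606 for Hmgb2 and 0.065 for Hmgb1, and without Bcl11bm/m replicate 1 it was 0.0506 for Hmgb2. Hmgb3 fell in Bcl11bfl/fl:Cd4-Cre cells by 1.35 (adjusted p = 0.00447). The proliferation genes fell in the same groups, and their part in the fall of these genes was not tested. Tox2, a relative of Tox, rose in Bcl11bfl/fl:Cd4-Cre cells from 0.787 ± 0.176 to 4.79 ± 2.21 FPKM (log2 difference 1.63, adjusted p = 0.00414). In Bcl11bm/m libraries it lay between 0.993 and 8.23 FPKM and missed the threshold (adjusted p = 0.0543 by limma). These values lay above every wild-type library, but only by a narrow gap to the highest, at 0.976 FPKM.

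Of 15 thymocyte genes linked to these factors, 3 rose (Zbtb7b, Runx3 and Bcl11b) and 4 fell (Cd5, Cd4, Cd8b1 and Rag2) in Bcl11bm/m cells, and 2 rose (Zbtb7b and Runx3) and 1 fell (Themis) in Bcl11bfl/fl:Cd4-Cre cells, where 17.3% and 14.5% of all features passed. The Bcl11b call in Bcl11bm/m cells was lost in 5 of 8 fits without a library, which left out wild-type replicate 4 or 5 or any of the Bcl11bm/m replicates (adjusted p = 0.0536 to 0.0928 by limma), and when low features were kept in the fit (adjusted p = 0.0858). The Themis call was lost under both rescalings and in 6 fits without a library. Zbtb7b, which encodes the CD4-lineage factor ThPOK, ranged over 0 to 0.215 FPKM for wild-type, 41.1 to 50.4 FPKM for Bcl11bm/m and 9.44 to 56.6 FPKM for Bcl11bfl/fl:Cd4-Cre. Runx3, the CD8-lineage factor, was at 1.97 to 6.40, 14.2 to 18.3 and 11.5 to 34.7 FPKM, and rose in both mutants (adjusted p = 0.00437 and 0.00581 by limma). An FPKM value per gene does not separate the promoters of Runx3. The paper reports that a reporter of the distal, CD8-lineage promoter was not detected in pre-selection Bcl11bfl/fl:Cd4-Cre thymocytes. Cd5, a TCR signal modulator, fell in Bcl11bm/m cells from 103 ± 38.1 to 37.3 ± 3.96 FPKM (adjusted p = 0.0122).

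**Figure D5:**
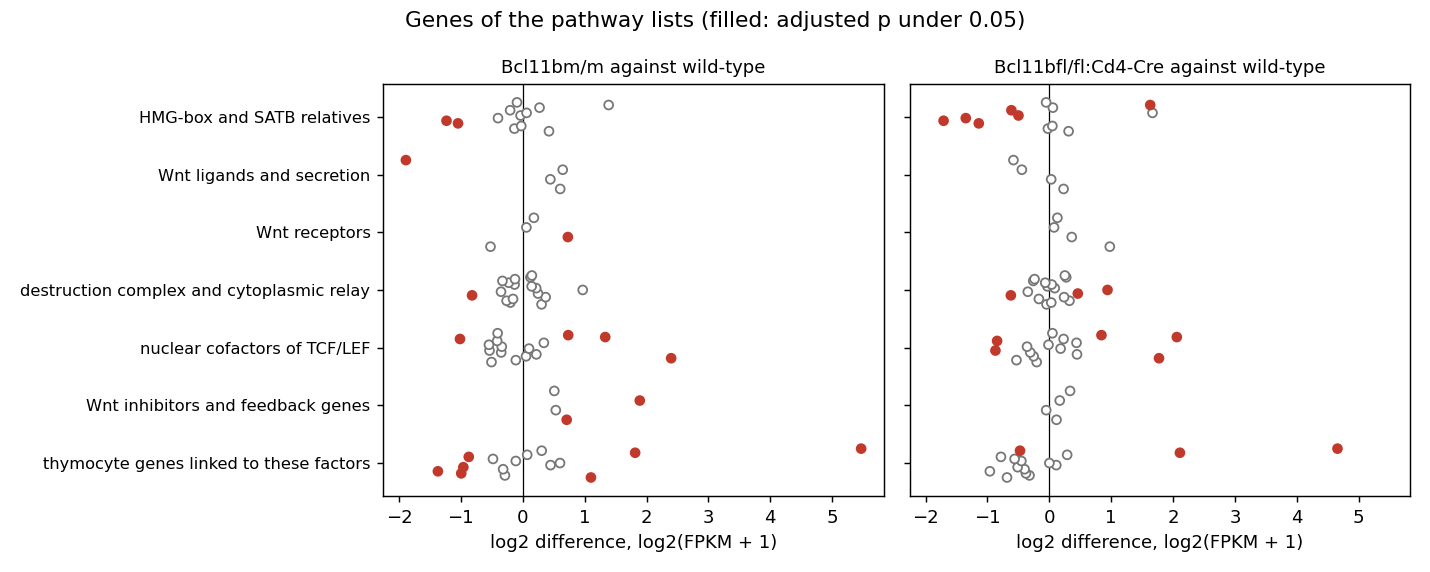
Log2 difference from wild-type of the tested genes of 7 lists around the members, in Bcl11bm/m (left) and Bcl11bfl/fl:Cd4-Cre (right) cells, with genes spread vertically within a list. Filled points passed at an adjusted p under 0.05, as 3 rising and 1 falling nuclear cofactors did on the left and 3 and 2 on the right. The point farthest right in both panels is Zbtb7b, whose wild-type level is near 0, so its position depends on the pseudocount.

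Across the 12 libraries the members did not follow one another closely. Pearson r of log2(FPKM + 1) was 0.73 for Tcf7 and Ctnnb1, 0.68 for Lef1 and Tox, 0.67 for Sox4 and Satb1 and -0.44 for Tcf7 and Sox4 (n = 12 libraries in 3 groups). Of their deviations from the group means, all 21 pairs had a positive r (0.08 to 0.76), a description over libraries that share their scaling and composition. The features most like each member by r over the 12 libraries were Fmnl1 for Tcf7 (0.943), Atp11b for Lef1 (0.932), Gata3 for Tox (0.889), Snn for Sox4 (0.977), Dnmt3a for Satb1 (0.925), Wdyhv1 for Ctnnb1 (0.949) and Dnajb1 for Axin2 (0.941). Next came Prkd2 and Lrch4 for Tcf7, Vps26a and Gna12 for Lef1, Cd2 and Efhd2 for Tox, Atf2 and Srbd1 for Sox4, Usp22 and Abcd3 for Satb1, Ptdss1 and Clec2d for Ctnnb1, and Eif1b and Laptm5 for Axin2, with r between 0.844 and 0.955. These are the highest values among 10780 features and are given as a description.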

How the data were processed

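RNA-seq of 12 libraries was used. The authors mapped reads with TopHat2 and estimated expression with Cufflinks (2.1.1 in the submitters' processing notes) on mm9 and the iGenome annotation, and deposited 1 FPKM value per gene and library, with no scaling between libraries stated. FPKM does not resolve exons or alleles, and its sum moves with abundant RNAs. The study's methods describe strand-specific libraries and the label protocol another kit and population, so the library chemistry is uncertain.

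From the deposited FPKM values, log2(FPKM + 1) was computed here. The test was limma (version 3.58.1, R 4.3.3), using lmFit and a trended eBayes on each pair of groups alone. P-values were two-sided and adjusted by Benjamini-Hochberg over 10780 features whose mean reached 1 FPKM, at a threshold of 0.05. The fit was tested on simulated data, but no outcome is given here and no error rate is read from it. Fragments per library were estimated from the steps of low FPKM values in genes with a single transcript of at least 1000 nt, of which 50.7 to 55.5% lay within 0.1 of a whole multiple, against 20% if spread evenly. They are approximate, and precision at low levels is limited by them. Python 3.11.15 (pandas 2.3.3 and numpy 2.4.6, figures by matplotlib 3.10.9) did the rest. Gene positions are from GENCODE on NCBIM37 (mm9) and promoters from RefSeq.

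Settings varied were the pseudocount (0.1), the filter (none, or a mean of 5 FPKM), median-ratio scaling, rescaling without 727 short RNA features, a single fit of all groups, a replicate block, library quality weights and leaving out each library. Leaving out libraries for the Lef1 to Tcf7 ratio was chosen after seeing the data. Named genes were the members, Bcl11b, up to 4 called genes per list and comparison by size of change, the 3 features most like each member, and markers that moved with one. Members and lists were chosen with earlier results of these data known. ChIP-seq and ATAC-seq data were not used here.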

Additional observations from a re-analysis of the deposited data

Results flagged for a closer look

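In groups of 4 or 5 libraries, the gap of a library to the next was compared with the range of the group. A library was singled out where this share passed a cut-off that 5% of groups would pass by chance. This held for 4 of 62 groups of members and genes named by rule, beside 3.1 given by chance at 5%. None of them concerned a member. Csnk1e was at 31.7 FPKM in Bcl11bfl/fl:Cd4-Cre replicate 3, below 39.2 to 40.3 FPKM in the other 3. Tle3 was at 163.8 FPKM in the same library, above 81.2 to 84.4 FPKM. Tle2 was at 14.7 FPKM in wild-type replicate 1, above 7.05 to 9.18 FPKM in the other 4. Zbtb7b was at 0.215 FPKM in wild-type replicate 3, above 0 to 0.0471 FPKM. The gap took up 0.874 and 0.962 of the range in the flagged groups of 4, and 0.721 and 0.781 in those of 5. Gaps of members that did not pass included Ctnnb1 in Bcl11bfl/fl:Cd4-Cre replicate 3, at 134 FPKM above 105 to 111 FPKM. Satb1 in Bcl11bfl/fl:Cd4-Cre replicate 2, at 681 FPKM above 512 to 555 FPKM, did not pass either.

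The effects of the 2 mutant genotypes differed when Bcl11bm/m and Bcl11bfl/fl:Cd4-Cre cells were compared directly by limma. Of the members, Lef1 was higher in Bcl11bm/m cells by 0.67 and Sox4 by 0.95 on the log2 scale. Bcl11b differed by 1.79, Myc by 1.72, the TCR signalling gene Themis by 0.78 (adjusted p = 0.00823) and Wnt5b by 1.09. Lower in Bcl11bm/m cells were Tle1, by -1.24, and Wnt8b, by -1.31 on the log2(FPKM + 1) scale, although Wnt8b was listed at 0 in all Bcl11bm/m libraries. Of 7 fits without a library, 6 ended each of the last pair of calls, with adjusted p up to 0.146 for Tle1 and 0.129 for Wnt8b, and both were lost with no filter (adjusted p = 0.138 and 0.127), that of Tle1 also with the smaller pseudocount (adjusted p = 0.0514). Relative to wild-type, Themis fell in Bcl11bfl/fl:Cd4-Cre cells by 0.47 (adjusted p = 0.0345), which was lost after median-ratio scaling (adjusted p = 0.126), after rescaling without short RNAs (-0.32, adjusted p = 0.229), with no filter (adjusted p = 0.0541), with a replicate block (adjusted p = 0.116) and in 6 fits without a library (adjusted p up to 0.0977, without Bcl11bfl/fl:Cd4-Cre replicate 3). Age, depth and genotype cannot be told apart in these differences.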

How the results depend on the processing

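The Sox4 call in Bcl11bfl/fl:Cd4-Cre against wild-type was kept in every alternative run. The number of members called in Bcl11bm/m against wild-type went from 1 to 3 (Lef1, Tox and Axin2) with median-ratio scaling, rescaling without short RNAs or quality weights, to 2 (Lef1 and Axin2) in a single fit, to 0 with the replicate block, and to between 0 and 2 with a library left out. In Bcl11bfl/fl:Cd4-Cre against wild-type it became 2 (Sox4 and Ctnnb1) with either rescaling. In the direct comparison 0 remained called with the block and 1 to 3 with a library left out. Features called changed from 1866 to 1189 (at least 5 FPKM), 3604 (weights) and 1021 to 2349 (a library left out) in Bcl11bm/m, from 1564 to 796 (no filter), 3176 (weights) and 700 to 2678 in Bcl11bfl/fl:Cd4-Cre, and from 1102 to 656 (at least 5 FPKM), 2173 (weights) and 313 to 1121 in the direct comparison. Replicate numbers did not pair the libraries (r of deviations -0.211 to 0.152). With a replicate block, features called were 283, 456 and 30, and in Bcl11bm/m cells the Axin2 call was lost (adjusted p = 0.246) as were those of Lef1 (0.167) and Sox4 (0.0874) in the direct comparison. Scaling moved the median difference of all features in Bcl11bfl/fl:Cd4-Cre against wild-type from -0.091 to 0.009 (median-ratio) or 0.041 (without short RNAs). Differences near 0 changed sign. In Bcl11bm/m these were Satb1 (0.0244 without short RNAs, 0.0116 with the block), Ctnnb1 (0.0207 without short RNAs, -0.159 to 0.016 with a library left out) and Sox4 (-0.0482 with weights, -0.0683 to 0.0942 with a library left out). In Bcl11bfl/fl:Cd4-Cre they were Lef1 (0.0129) and Tox (0.0333) without short RNAs, and Tox (-0.422 to 0.129) with a library left out. The causes were not tested. Of 35 calls of other named genes, 24 were lost with the block, 9 with no filter, 3 without short RNAs and 1 each with median-ratio scaling and the smaller pseudocount. Tcf7l2 rests on an estimated 7 to 90 fragments per library.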
